A study of Mus musculus with 10 samples.

Results

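The imprinted growth genes H19, Igf2, Meg3, Rian, Mirg, Dlk1, Peg3, Cdkn1c, Grb10 and Plagl1 were compared between gastrocnemius muscle of desmin knock-out and wild-type mice. These 10 genes were taken by name from the 54232 rows of the deposited expression table, and each of them had 1 row. RNA had been sequenced from 5 homozygous desmin knock-out mice (Des -/-) and 5 wild-type mice (Des wt/wt), all labelled with the strain B6J.129Sv-Destm1Cba/Cscl. According to the methods the wild-type mice were littermates, all animals were 3 months old, and RNA of 5 muscles was pooled for each genotype, whereas the table has a separate column for every mouse, each used as 1 replicate. The methods name the gastrocnemius as the muscle, whereas a figure legend and the discussion of the paper name gastrocnemius and plantaris. The knock-out is constitutive, so desmin was missing from every tissue of these animals during development as well. The labels do not give the sex of the mice, but the Y-linked transcripts Ddx3y, Eif2s3y, Kdm5d and Uty were expressed in every column, as in males.

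The values are regularized log (rlog) values, that is log2 expression after library size scaling, with shrinkage of every gene to its own average that is strongest where reads are few. Fold changes of the read counts would thus be larger than the differences given here for genes with few reads. For genes with many reads they could be close to them. The depth behind each value is unknown. The table holds 26079 rows at 0 in all mice. For 14289 genes the mean rlog value reached log2(10), the expression limit. These were compared with limma, and a gene was called when its p, adjusted over all of them, was under 0.05. Desmin mRNA (Des) itself was 11.84 ± 0.06 (SD, n = 5) in knock-out and 16.58 ± 0.67 in wild-type muscle, which matched the labels in every mouse. The 8 defining genes of skeletal muscle were all expressed. Wild-type mouse 3 stood apart from the others. Its values, summed after conversion from log2, were 1.48 times the median of all mice, against 0.949 to 1.06 times in the others, and it correlated least with its own genotype, with a mean of 0.982 against 0.989 to 0.991. Calls that changed without this mouse are given with and without it.

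Imprinted genes are expressed mainly from the maternal or mainly from the paternal copy, according to DNA methylation marks set in the germ line. Many of them lie in clusters controlled by a shared imprinting control region, and many regulate growth: paternally expressed genes such as Igf2, Dlk1, Peg3 and Plagl1 and maternally expressed genes such as H19, Meg3, Rian, Mirg, Cdkn1c and Grb10. H19 and Igf2 share enhancers on distal chromosome 7. Dlk1, Meg3, Rian and Mirg lie in the Dlk1-Dio3 cluster on chromosome 12. In skeletal muscle the H19 RNA is known for its high abundance and is among the imprinted transcripts that stay expressed after birth.

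A promoter sequence of Peg3 and the miRNA sequences within H19 are given for reference. The promoter of Peg3 is shown because Peg3 had the largest difference of the 10 genes. It is the window from 250 bases before to 50 bases after the annotated start, at chr7:6730370-6730669 on the minus strand (RefSeq, GRCm38.p6). Capitals mark GGGGCCCC, a motif bound by PLAGL1, the zinc finger transcription factor that is itself encoded by 1 of the 10 genes.

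Peg3 promoter: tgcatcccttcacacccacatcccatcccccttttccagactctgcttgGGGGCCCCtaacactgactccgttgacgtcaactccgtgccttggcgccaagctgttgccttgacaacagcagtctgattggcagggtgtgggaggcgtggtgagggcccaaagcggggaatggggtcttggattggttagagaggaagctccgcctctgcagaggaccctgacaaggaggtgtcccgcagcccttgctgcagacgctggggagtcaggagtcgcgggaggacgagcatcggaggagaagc

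RefSeq promoter windows were matched for 8 of the 10 genes, all but H19 and Cdkn1c, with 13 windows in all because Igf2, Grb10 and Meg3 have several. The motif GGGGCCCC reads the same on both strands and was found in 1 of these 13 windows, that of Peg3, where it begins at base 50 of the window. Of all 32851 promoter windows, 354 (1.08%) hold it. The YY1 motif GCCATNTT, searched on both strands, was in 0 of the 13 windows and in 6.05% of all windows. With so few windows this is not set apart from the share of all windows. Sequence outside the windows, such as introns, was not searched. The Peg3 window has a GC content of 61.3% and 13 CpG dinucleotides, compared with medians of 52.7% and 7 over all windows.

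The H19 transcript is also the precursor of miR-675. Both mature forms are shown with the seed, bases 2 to 8, in capitals. They lie inside H19 on the minus strand, miR-675-5p at chr7:142577112-142577133 and miR-675-3p at chr7:142577078-142577099 (GRCm38.p6).
mmu-miR-675-5p: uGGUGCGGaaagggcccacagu
mmu-miR-675-3p: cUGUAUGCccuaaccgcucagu

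The seeds of both forms differ. Meg3, Rian and Mirg likewise span precursors of mature miRNAs, 3 within Meg3, 6 within Rian and 26 within Mirg, and of the latter only miR-453 and miR-496a-5p share a seed. The libraries were made with a kit for mRNA, which does not target small RNAs. Of the 35 miRNA and snoRNA rows that lie inside H19, Meg3, Rian or Mirg, 34 were at 0 in all mice, Mir675 among them, and the snoRNA DQ267102 inside Rian lay between -1.93 and -1.91 in every mouse. Reads that overlap both such a row and its host may not have been counted for the row. The zeros therefore do not show that these small RNAs were absent. The values given for H19, Meg3, Rian and Mirg are those of the long host transcripts.

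Levels differed widely among the 10 genes. Per kilobase of exon (rlog minus log2 of the exon length in kb), H19 had the highest level in wild-type muscle, 13.35 ± 0.33 (SD, n = 5), followed by Cdkn1c with 8.60 ± 0.28, Grb10 with 6.67 ± 0.53 and Peg3 with 5.16 ± 0.37. Meg3 (4.04 ± 0.72), Rian (3.28 ± 0.71), Plagl1 (1.49 ± 0.40), Mirg (0.93 ± 0.38), Igf2 (0.55 ± 0.21) and Dlk1 (-0.16 ± 0.23) came after these. The ranges of the 5 wild-type mice did not overlap between H19, Cdkn1c, Grb10 and Peg3, nor between Rian and Plagl1, but every other pair of neighbours in this order overlapped. In knock-out muscle the order was the same, and Peg3, at 6.47 ± 0.30, overlapped with Grb10, at 6.60 ± 0.05, as did Mirg (0.77 ± 0.25) with Igf2 (0.40 ± 0.20). The growth factor gene Igf2 and its cluster neighbour H19 thus stood near opposite ends of the order in both genotypes.

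**Figure D1:**
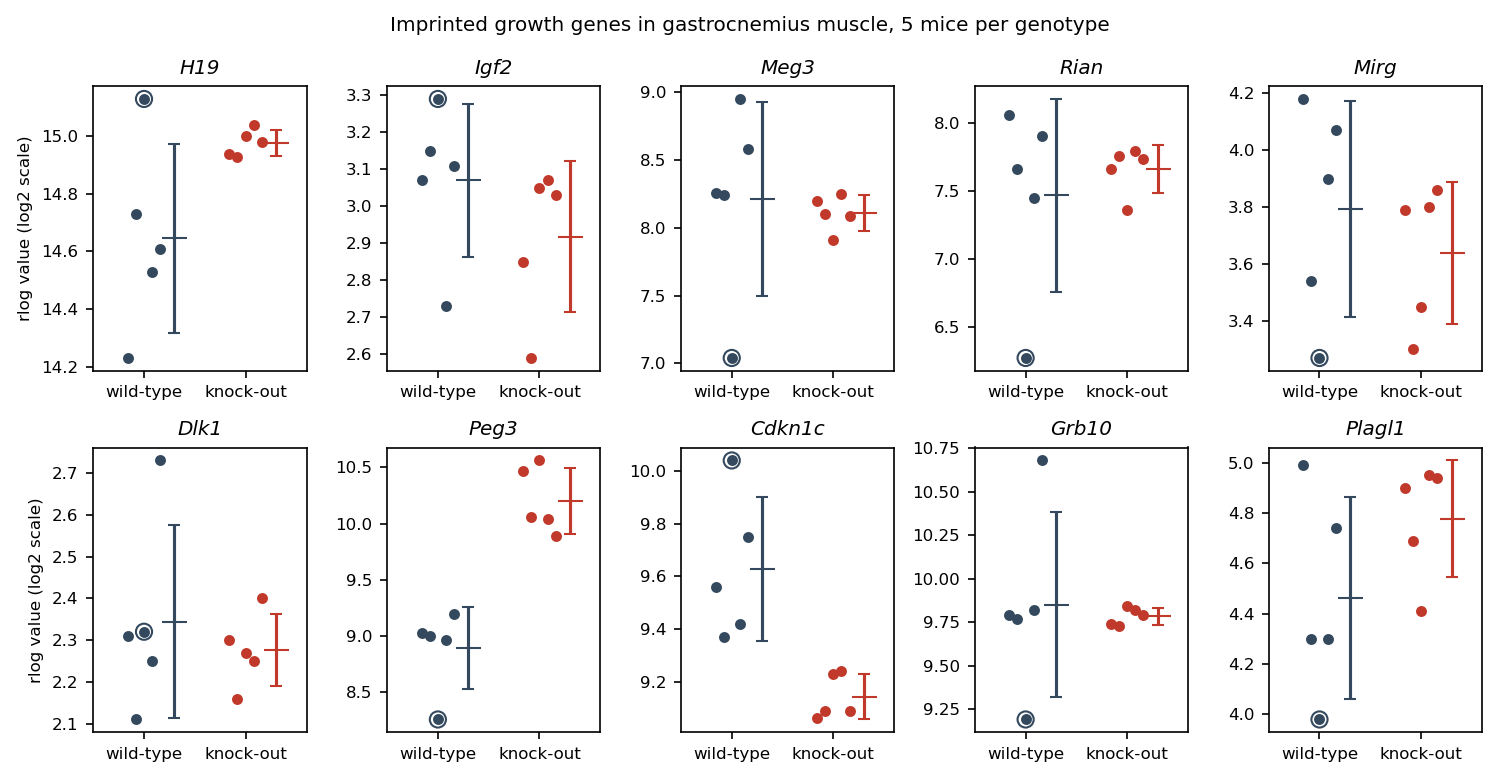
rlog values (log2 scale, a separate axis for each gene) of the 10 imprinted growth genes in each of 5 wild-type (dark) and 5 desmin knock-out mice (red), with mean ± SD beside the points and wild-type mouse 3 ringed. The knock-out values lie entirely above the wild-type values for Peg3 and entirely below them for Cdkn1c, and the genotypes overlap for the other 8 genes.

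Of the 10 genes, 8 were above the expression limit and were tested. Peg3 rose and Cdkn1c fell in desmin knock-out muscle, and the other 6 tested genes were not called. Of all tested genes 13.7% were called, 7.7% as higher and 5.99% as lower, and 14.4% had no overlap between the genotypes, and with 8 genes tested, 2 called genes and 2 genes without overlap were not set apart from this background. The mean was higher in knock-out muscle for 4 and lower for 4 of the 8 genes, and their median difference (knock-out minus wild-type) was 0.06, compared with -0.0 over all tested genes. Without wild-type mouse 3, H19 was called as well, 3 genes had a higher and 5 a lower mean, and their median was -0.17, with 17.4% of all genes called.

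Peg3 (ENSMUSG00000002265, chr7:6703892-6730431, minus strand, GRCm38) encodes a large zinc finger protein that is expressed from the paternal copy and is known in muscle from satellite cells, the muscle stem cells. Its rlog values were 10.47, 10.06, 10.56, 10.04 and 9.89 in knock-out mice 1 to 5 and 9.03, 9.0, 8.26, 8.97 and 9.20 in wild-type mice 1 to 5. All knock-out mice were above all wild-type mice, and the lowest value belonged to wild-type mouse 3. The means were 10.20 ± 0.30 and 8.89 ± 0.37 (SD, n = 5), a difference of 1.31 (SE 0.18) or 2.48-fold on the rlog scale with an adjusted p of 0.00025 (limma). Without wild-type mouse 3 the difference was 1.15 with an adjusted p of 5.1e-05. It was called under all 18 alternative settings, with differences between 1.06 and 1.39.

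Other genes of the Peg3 cluster did not pass the test. Zim1, a zinc finger gene that lies 7.44 kb from Peg3 and is expressed from the maternal copy, was 7.80 ± 0.17 in knock-out and 7.53 ± 0.33 in wild-type muscle (adjusted p 0.266, limma). Usp29, which begins 0.147 kb from Peg3 on the opposite strand and shares its bidirectional control region, was under the expression limit with 3.07 ± 0.17 and 2.86 ± 0.25 (adjusted p 0.435 without the limit). Zfp264 was at 0 in all mice. No other gene within 250 kb of Peg3 was above the expression limit.

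The genes whose profile over the 10 mice was most like that of Peg3, by the root mean square distance between values centred on each gene's mean, were Cers6 (0.191), Tec (0.198) and Wdfy1 (0.222), against a root mean square of 0.721 for the profile of Peg3 itself. They lie on chromosomes 2, 5 and 1, the last of which also holds Des, and differed between the genotypes by 1.30, 1.28 and 1.37, respectively. Differences near that of Peg3 follow from choosing genes by this distance and are no separate result. Cers6 encodes a ceramide synthase and Tec a tyrosine kinase.

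Markers of regenerating muscle moved between the same groups. Of 12 genes of embryonic and regenerating fibers, 7 were higher and 2 lower in knock-out muscle (75%, against 13.7% of all tested genes). Among them the embryonic myosin gene Myh3 was higher by 2.25 (SE 0.19, adjusted p 5.9e-06, limma), the fusion factor gene Mymk by 1.93 (SE 0.20, adjusted p 2.1e-05) and its partner Mymx by 1.35 (SE 0.14, adjusted p 2.9e-05). Myod1, a myogenic transcription factor, and Actc1, the cardiac actin of developing fibers, were the lower genes, with -0.47 and -0.83. The call of Actc1 was lost in 7 of the 10 fits with 1 mouse left out, including that without wild-type mouse 3 (-0.68, adjusted p 0.0511), and that of Myod1 without knock-out mouse 4 or 5. Ncam1, an adhesion gene of denervated and regenerating fibers, differed by 0.57 (adjusted p 0.0731) and was called without wild-type mouse 3 (0.73, adjusted p 0.00796), so that 8 genes were then higher and 1 lower. Pax7, the defining gene of satellite cells, was 6.22 ± 0.14 in knock-out and 6.20 ± 0.26 in wild-type muscle. The summed level of the list, in units of 2 to the power of the rlog value, was 5630 to 8890 in knock-out and 4800 to 9330 in wild-type mice, and none of its genes was at 0. Their part in the result for Peg3 was not tested. In such bulk samples more cells of a type and more RNA per cell cannot be told apart.

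Cdkn1c (ENSMUSG00000037664, chr7:143458339-143461050, minus strand) encodes an inhibitor of cyclin-dependent kinases that is expressed from the maternal copy and takes part in cell cycle exit of myoblasts. Knock-out mice 1 to 5 had values of 9.06, 9.09, 9.23, 9.24 and 9.09, and wild-type mice 1 to 5 had 9.56, 9.37, 10.04, 9.42 and 9.75. All knock-out mice were below all wild-type mice, with the highest value again in wild-type mouse 3. The means of 9.14 ± 0.09 and 9.63 ± 0.28 (SD, n = 5) differed by -0.48 (SE 0.12), which is 0.715-fold, with an adjusted p of 0.0189 (limma). Without wild-type mouse 3 it was -0.38 with an adjusted p of 0.0103. The call was close to the threshold: it was lost without knock-out mouse 1 (adjusted p 0.0517), 2 (0.0504) or 5 (0.0511) and was kept under the other 15 of 18 alternatives.

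Around Cdkn1c, the tested genes of its imprinted cluster showed no common direction. The antisense RNA Kcnq1ot1, which silences this cluster on the paternal copy, was 6.66 ± 0.16 in knock-out and 6.84 ± 0.59 in wild-type muscle (difference -0.18, adjusted p 0.641, limma). Osbpl5 differed by -0.03, Slc22a18 was under the expression limit and Phlda2 was at 0. On the far side of the cluster, the decoy receptor gene Tnfrsf23 was higher in every knock-out mouse, with 9.36, 9.14, 9.12, 9.0 and 9.05 against 8.0, 8.16, 8.21, 8.31 and 8.0 in wild-type mice (difference 1.00, SE 0.10, adjusted p 2.3e-05). Its paralog and neighbour Tnfrsf22, 174 kb from Cdkn1c, was higher by 0.52 (SE 0.12, adjusted p 0.0113), and reads shared by such paralogs could have been counted for either or for neither gene.

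Endothelial markers, which fell between the same groups, are given beside Cdkn1c. Of 8 such genes none was higher and 4 were lower in knock-out muscle (50%, against 13.7% of all tested genes). The lower genes were the VEGF receptor gene Flt1 (-0.59, adjusted p 0.00133, limma), the adhesion genes Cdh5 (-0.52, adjusted p 0.00797) and Pecam1 (-0.49, adjusted p 0.013) and the receptor gene Tie1 (-0.48, adjusted p 0.0385). The call of Tie1 was lost in 7 of the 10 fits with 1 mouse left out. The summed level of the 8 endothelial markers was 4780 to 6040 in knock-out and 6160 to 7600 in wild-type mice, without overlap, and none was at 0. Their part in the result for Cdkn1c was not tested. Of 10 fibroblast markers, 3 were higher (Lum, Col1a1 and Col3a1) and 1 was lower (Ly6a), that is 40%. Their summed levels were 9680 to 15200 in knock-out and 10000 to 13700 in wild-type mice. The calls of Col1a1 and Col3a1 were lost in 7 and 8 of the 10 fits with 1 mouse left out, respectively. Without wild-type mouse 3, Col3a1 differed by 0.45 (adjusted p 0.0582) and Dpp4 by -0.49 (adjusted p 0.0428), so that 2 fibroblast markers were higher and 2 lower. Of 7 adipocyte, 7 Schwann cell and 7 macrophage markers none was called, and the median differences of the lists were -0.02, 0.01 and 0.08. Of the 8 defining genes of skeletal muscle, 1 was called (12.5%, against 13.7% of all tested genes). It was the fast myosin gene Myh4, which was lower (-0.71, adjusted p 0.036, limma). This call was lost in 8 of the 10 fits with 1 mouse left out. The mean was lower in knock-out muscle for 6 and higher for 2 of these 8 genes. Their median difference was -0.41, the same as that of the endothelial markers. Their summed level was 4370000 to 5010000 in knock-out and 5110000 to 9340000 in wild-type mice, also without overlap. Myh4 stayed lower without wild-type mouse 3 (-0.61, adjusted p 0.0184), and the fast myosin gene Myh1 (0.79, adjusted p 0.00524) and the myoglobin gene Mb (0.38, adjusted p 0.021) were then higher.

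The profiles most like that of Cdkn1c belonged to Chst12 (root mean square distance 0.0705), Insyn1 (0.0759) and Phf2 (0.0766), compared with 0.303 for the profile of Cdkn1c itself. They differed between the genotypes by -0.51, -0.45 and -0.43 and lie on chromosomes 5, 9 and 13. As for Peg3, differences near that of Cdkn1c follow from this way of choosing genes. Phf2 encodes a histone demethylase. The closest relatives of the 10 genes were also looked up. Of the other Cip/Kip inhibitors, Cdkn1a, which encodes p21 and responds to p53, was higher in all knock-out mice with 11.44 ± 0.21 against 9.96 ± 0.11 (difference 1.48, SE 0.11, adjusted p 1.5e-06), and Cdkn1b was 9.96 ± 0.19 against 9.68 ± 0.77 (adjusted p 0.565). Of the 6 tested relatives in total, 1 was called, which was Cdkn1a. Grb14, the relative of Grb10, differed by 0.42 (adjusted p 0.0948) and Plag1, that of Plagl1, by -0.31 (adjusted p 0.245).

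**Figure D2:**
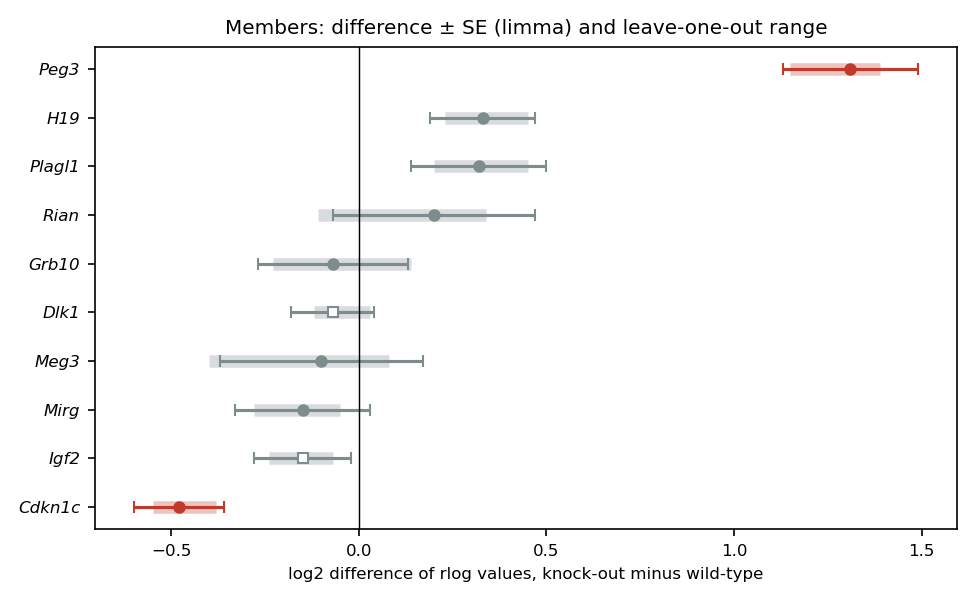
Difference of mean rlog values (log2 scale, knock-out minus wild-type) of the 10 genes with SE from limma; pale bands span the values obtained when each mouse is left out, red marks an adjusted p under 0.05, and open squares mark Igf2 and Dlk1 from the fit without an expression limit. Peg3 lies at 1.31 and Cdkn1c at -0.48, and the bands of Meg3, Rian, Dlk1 and Grb10 cross 0.

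H19 (ENSMUSG00000000031, chr7:142575529-142578143, minus strand), the long non-coding RNA of the Igf2 cluster, had values of 14.94, 14.93, 15.00, 15.04 and 14.98 in knock-out mice 1 to 5 and 14.23, 14.73, 15.13, 14.53 and 14.61 in wild-type mice 1 to 5. Of the wild-type mice, only mouse 3 was above the knock-out mice and the other 4 were below all of them. The means were 14.98 ± 0.04 and 14.65 ± 0.33 (SD, n = 5), and the difference of 0.33 (SE 0.14) did not pass the test (adjusted p 0.147, limma). This result turned on wild-type mouse 3: without it the difference was 0.45 with an adjusted p of 0.00496. H19 also passed after quantile normalization (0.43, adjusted p 0.0204), with sample weights (0.46, adjusted p 0.00145) and with the level of 4 Y-linked transcripts as covariate (0.47, adjusted p 0.0154), but not under the other 14 of 18 alternatives. These Y-linked transcripts averaged 9.52 in wild-type mouse 3 and 9.88 to 10.62 in the other mice. They were thus expressed in all mice, and the covariate did not stand for a difference in sex.

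Igf2 (ENSMUSG00000048583, chr7:142650766-142666816, minus strand), the fetal insulin-like growth factor, was under the expression limit. Its values were 2.85, 2.59, 3.05, 3.07 and 3.03 in knock-out and 3.07, 3.15, 3.29, 2.73 and 3.11 in wild-type mice. They overlapped, and the difference was -0.15 (SE 0.13, adjusted p 0.586 in the limma fit of 28153 genes without the limit, of which 5.55% were called). The antisense transcript Igf2os differed by 0.06. Whether reads were counted by strand is not given in the sources used here, so that reads of overlapping genes on opposite strands may not be told apart. This applies to Igf2 and Igf2os and to Cdkn1c and Gm44732 (1.20 to 1.61 in all mice). It applies as well to H19 with Gm27483 (2.84 to 3.33) and Gm27786 (1.23 to 1.57). None of the overlapping rows Igf2os, Gm44732, Gm27483 and Gm27786 differed between the genotypes at an adjusted p under 0.05. The same limit holds for other imprinted genes, among them Igf2r, which overlaps Airn (mean 8.5 in both genotypes), and Kcnq1ot1, which lies inside Kcnq1.

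Because genes of 1 cluster were measured in the same mouse, their distance could be compared between genotypes, and 5 such pairs were tested by an exact two-sided permutation test with adjustment over the 5 pairs. Igf2 minus H19 was -12.09, -12.34, -11.95, -11.97 and -11.96 in knock-out mice and -11.16, -11.58, -11.84, -11.80 and -11.50 in wild-type mice. The groups did not overlap: H19 and Igf2 lay further apart in knock-out muscle, by -0.49 (means -12.06 ± 0.17 and -11.58 ± 0.27, exact p 0.00794, the smallest that 5 against 5 mice allow, adjusted p 0.0397). Of its parts, H19 differed by 0.33 and was not called. Igf2, which was under the expression limit and whose low values are strongly shrunken, differed by -0.15. The pairs were chosen with earlier results of these data known, which the adjustment over the 5 pairs does not take into account. When any of the 10 mice was left out the difference was between -0.55 and -0.38. With 4 mice left in 1 group the smallest exact p is 0.0159, and the adjusted p was 0.0397 without wild-type mouse 1 and 0.0794 without any of the other 9 mice.

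Of the receptors and binding partners of IGF2, 13 genes were listed and 10 tested. Of these, 1 was higher and 2 were lower in knock-out muscle (30%, against 13.7% of all tested genes). Igf2bp2, an RNA-binding protein gene active in muscle growth, was higher with 8.12 ± 0.40 against 7.21 ± 0.22, although knock-out mouse 3 lay within the wild-type range (difference 0.91, SE 0.18, adjusted p 0.00346, limma). Igfbp5, a binding protein gene of high expression in muscle, was lower in all knock-out mice with 13.23 ± 0.11 against 13.94 ± 0.36 (difference -0.71, SE 0.15, adjusted p 0.00703). Igfbp5 (chr1:72857932-72874884) lies on the same chromosome as the knocked-out gene Des (chr1:75360329-75368579). Whether its difference came from linkage to the targeted locus was not tested. Igf2bp3 differed by -0.46 (SE 0.13, adjusted p 0.0333), and its call was lost in 7 of the 10 fits with 1 mouse left out, including that without wild-type mouse 3 (-0.39, adjusted p 0.0546). The signalling receptor genes Igf1r (0.27, adjusted p 0.322) and Insr (0.33, adjusted p 0.211) were not called. Igf2r, which encodes the receptor that clears IGF2 and is imprinted itself, was 11.88 ± 0.09 in knock-out and 11.44 ± 0.40 in wild-type mice without overlap, and its difference of 0.44 had an adjusted p of 0.0827, but without wild-type mouse 3 the difference was 0.27 with an adjusted p of 0.0169. The counts without this mouse were thus 2 higher and 1 lower.

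In the Dlk1-Dio3 cluster no gene was called. Meg3 (ENSMUSG00000021268, chr12:109541001-109571726, plus strand), a maternally expressed long non-coding RNA, was 8.20, 8.10, 7.91, 8.25 and 8.09 in knock-out mice 1 to 5 and 8.26, 8.24, 7.04, 8.95 and 8.58 in wild-type mice 1 to 5. The wild-type mice spread on both sides of the knock-out mice, with mouse 3 lowest and mouse 4 highest. The difference was -0.10 (SE 0.27, adjusted p 0.831, limma), and it was -0.40 with an adjusted p of 0.0676 without wild-type mouse 3 and 0.08 without wild-type mouse 4.

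Rian (ENSMUSG00000097451, chr12:109603940-109661716, plus strand), which follows Meg3 and hosts small nucleolar RNAs, was 7.66, 7.76, 7.36, 7.80 and 7.74 in knock-out and 8.06, 7.66, 6.27, 7.45 and 7.91 in wild-type mice. Again wild-type mouse 3 was the lowest of all 10. The difference was 0.20 (SE 0.27, adjusted p 0.672) with this mouse and -0.11 without it, so that its direction rested on this mouse. Mirg (ENSMUSG00000097391, chr12:109729764-109749460, plus strand), the host of a large miRNA cluster, was 3.79, 3.30, 3.45, 3.80 and 3.86 in knock-out and 4.18, 3.54, 3.27, 3.90 and 4.07 in wild-type mice, with a difference of -0.15 (SE 0.18, adjusted p 0.626). It lay between -0.28 without wild-type mouse 3 and -0.05 without wild-type mouse 1.

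Dlk1 (ENSMUSG00000040856, chr12:109452823-109463336, plus strand), the paternally expressed gene for a Notch-related membrane protein of myogenic progenitors, was under the expression limit. It lay at 2.30, 2.16, 2.27, 2.25 and 2.40 in knock-out and at 2.31, 2.11, 2.32, 2.25 and 2.73 in wild-type mice. These values overlapped (difference -0.07, SE 0.11, adjusted p 0.821 without the limit). Of the other genes of the cluster, Dio3, the enzyme that inactivates thyroid hormone, differed by -0.01 and Rtl1, a retrotransposon-derived gene, by 0.01, both under the expression limit, and Begain by 0.27 (adjusted p 0.281).

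Within this cluster the distances between genes did not differ beyond the spread. Rian minus Meg3 was -0.44 ± 0.10 in knock-out and -0.74 ± 0.47 in wild-type mice (difference 0.30, exact permutation p 0.206, adjusted p 0.344). The difference was -0.35 for Mirg minus Rian (exact p 0.175, adjusted p 0.344), -0.05 for Mirg minus Meg3 (exact p 0.841, adjusted p 0.897) and 0.04 for Dlk1 minus Meg3 (exact p 0.897, adjusted p 0.897). Without wild-type mouse 1 the distance of Rian and Meg3 changed to a difference of 0.44 with an adjusted p of 0.0397.

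Grb10 (ENSMUSG00000020176, chr11:11930508-12038683, minus strand) encodes an adaptor that dampens signalling of the insulin and IGF1 receptors. Its values were 9.74, 9.73, 9.84, 9.82 and 9.79 in knock-out mice 1 to 5 and 9.79, 9.77, 9.19, 9.82 and 10.68 in wild-type mice 1 to 5. Wild-type mice 1, 2 and 4 lay within the range of the knock-out mice, while wild-type mouse 3 was below and wild-type mouse 5 above all others. The difference was -0.07 (SE 0.20, adjusted p 0.856, limma), it was -0.23 without wild-type mouse 3 and 0.14 without wild-type mouse 5. Plagl1 (ENSMUSG00000019817, chr10:13060504-13131694, plus strand), a paternally expressed transcription factor gene that is known to regulate other imprinted genes, was 4.90, 4.69, 4.41, 4.95 and 4.94 in knock-out and 4.99, 4.30, 3.98, 4.30 and 4.74 in wild-type mice. The groups overlapped, with a difference of 0.32 (SE 0.18, adjusted p 0.287), which was 0.20 without wild-type mouse 3.

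A shared feature of the 10 genes was their small spread in knock-out mice. The SD over 5 mice was smaller in knock-out than in wild-type muscle for all 10 genes, with medians of 0.15 and 0.37. Over all tested genes this was so for 82.9%, with medians of 0.13 and 0.25. Without wild-type mouse 3 it was so for 8 of the 10 genes and for 68.4% of all tested genes. The smaller spread was thus common to most genes of these libraries.

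To see whether the 2 called genes stood alone, 48 other imprinted genes were looked up, of which 31 were tested. The values do not tell the parental copies apart, so whether each of the 48 genes is imprinted in this muscle was not tested. Of these, 4 were higher and 2 lower in knock-out muscle (19.4%, against 13.7% of all tested genes), and the median difference was 0.03. Besides Tnfrsf23, the higher genes were Inpp5f, an inositol phosphatase gene (0.48, SE 0.12, adjusted p 0.0156, limma), Cd81, a tetraspanin gene (0.35, SE 0.10, adjusted p 0.0286), and Zdbf2 (0.68, SE 0.20, adjusted p 0.04). The call of Zdbf2 was lost in 9 of the 10 fits with 1 mouse left out, with 0.54 and an adjusted p of 0.0571 without wild-type mouse 3, and that of Cd81 in 6 of them (adjusted p up to 0.0757). The counts were again 4 and 2 without wild-type mouse 3, with Igf2r called in place of Zdbf2. The lower genes were Slc38a4 and Snrpn.

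Slc38a4, which encodes an amino acid transporter and is expressed from the paternal copy, was 12.19, 12.03, 12.44, 12.24 and 12.32 in knock-out mice and 13.51, 13.29, 13.08, 13.05 and 12.90 in wild-type mice. It was lower in all knock-out mice (difference -0.92, SE 0.12, 0.528-fold, adjusted p 0.00019, limma). Snrpn, a splicing factor gene of the Prader-Willi cluster, was 9.35 ± 0.10 against 9.82 ± 0.15 (difference -0.47, SE 0.10, adjusted p 0.00534). Called genes thus included paternally expressed genes of both directions, Peg3 higher and Slc38a4 and Snrpn lower.

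**Figure D3:**
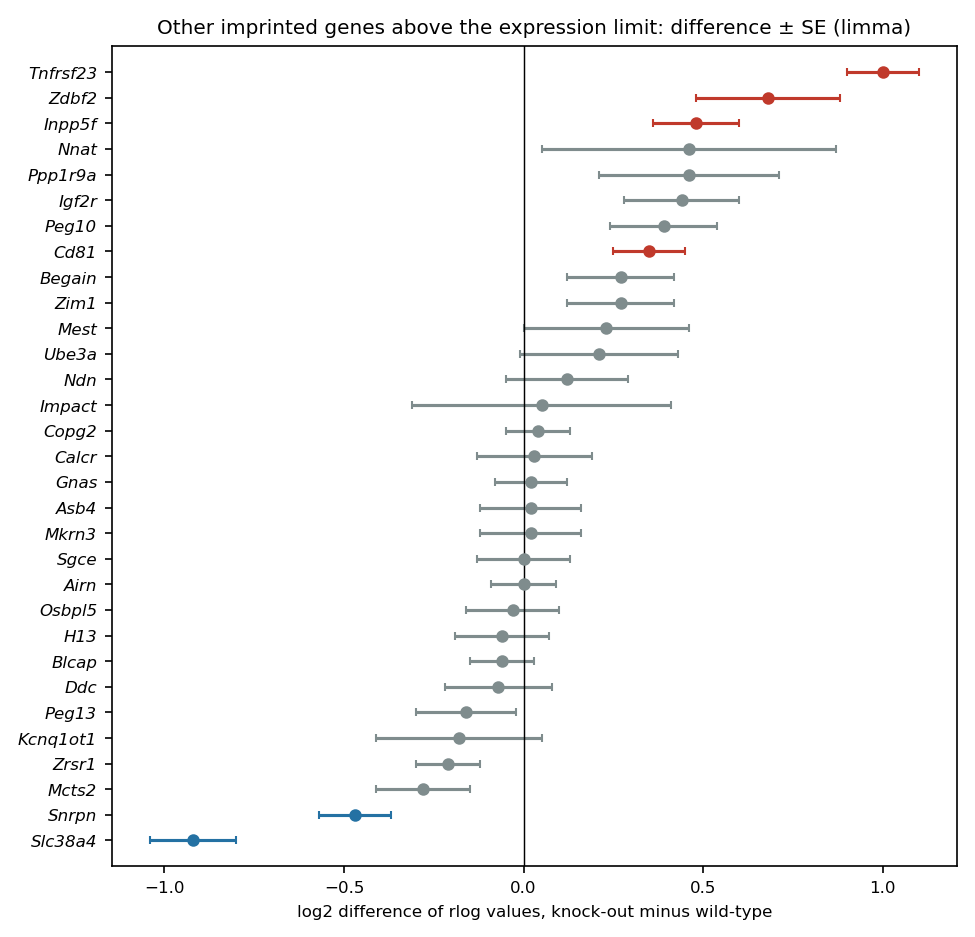
Difference of mean rlog values (log2 scale, knock-out minus wild-type) with SE from limma for the 31 tested other imprinted genes, in order of the difference. Red marks the 4 genes called higher, with Tnfrsf23 at 1.00 at the top, and blue the 2 called lower, with Slc38a4 at -0.92 at the bottom.

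Of 17 genes for factors that set, keep or remove imprints, all were tested and 1 was called (5.88%, against 13.7% of all tested genes). Tet2, which encodes a methylcytosine dioxygenase, was 10.90, 10.26, 10.57, 10.49 and 10.40 in knock-out and 9.81, 9.68, 8.03, 9.17 and 10.02 in wild-type mice. All knock-out mice were higher, and the difference of 1.18 (SE 0.30, adjusted p 0.0174, limma) became 0.85 without wild-type mouse 3 (adjusted p 0.00231) and had an adjusted p of 0.0514 without knock-out mouse 1. Ezh2, the catalytic subunit of Polycomb complex PRC2, differed by 0.29 (adjusted p 0.0921) and was called without wild-type mouse 3 (0.33, adjusted p 0.0472), which made 2 called genes of 17 (11.8%). Its partner Eed differed by -0.18 (adjusted p 0.254), and Tet1, which differed by 0.26 (adjusted p 0.335), was called without wild-type mouse 5 (0.41, adjusted p 0.0485). The maintenance methyltransferase gene Dnmt1 differed by -0.10, the insulator gene Ctcf, whose product binds the control region between Igf2 and H19, by 0.10, and Trim28, the co-repressor that protects imprints, by -0.13, none of them called.

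Genes beside the 10 genes were examined in windows of 250 kb on either side. Apart from the 10 genes and the 48 listed imprinted genes, 21 tested genes lay there, some of them, such as Kcnq1 and Tnfrsf22, in the imprinted cluster of Cdkn1c. Of the 21 genes, 2 were higher and 3 lower (23.8%, against 13.7% of all tested genes). Without knock-out mouse 1 or knock-out mouse 4, 3 of them were called, 2 higher and 1 lower. No tested gene lay beside Meg3, Rian, Mirg, Dlk1 or Peg3, and none of 3 was called beside Grb10. Beside Plagl1, the syntaxin gene Stx11 was higher by 0.69 (SE 0.14, adjusted p 0.005, limma) and Phactr2 was lower by -0.37 (SE 0.10, adjusted p 0.0323), at distances of 96.2 and 76 kb, and the call of Phactr2 was lost in 7 of the 10 fits with 1 mouse left out. On the H19 side, Ifitm10 was lower in all knock-out mice with 4.58 ± 0.11 against 5.44 ± 0.23 (difference -0.86, SE 0.13, adjusted p 0.00053, 202 kb away), and Prr33 was lower by -0.37 (SE 0.09, adjusted p 0.0186, 68.8 kb away), the latter not without knock-out mouse 1 or 4.

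H19 lies next to genes of the fast muscle fiber, and the nearest of these were not called. Nctc1, a non-coding RNA at the muscle enhancer 16.9 kb from H19, was 12.17 ± 0.12 in knock-out and 12.40 ± 0.17 in wild-type muscle (difference -0.23, adjusted p 0.16, limma). The fast troponin T gene Tnnt3 differed by -0.40 without overlap (adjusted p 0.208) and the fast troponin I gene Tnni2 by -0.36 (adjusted p 0.3). The wild-type mouse 3 had the highest value of all 10 mice for both troponin genes, as for H19.

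In a wider stretch of distal chromosome 7 of 1.64 Mb, chosen after the values had been seen, 22 tested genes other than H19, Igf2 and Cdkn1c were found. Of these, 3 were higher (Cd81, Tnfrsf22 and Tnfrsf23) and 3 lower (Ifitm10, Prr33 and Mrgpre), that is 27.3%, against 13.7% of all tested genes. Mrgpre differed by -0.52 (adjusted p 0.0273) and lost its call in 4 of the 10 fits with 1 mouse left out. Called genes did not keep to 1 direction along the stretch, and most genes between them were not called.

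**Figure D4:**
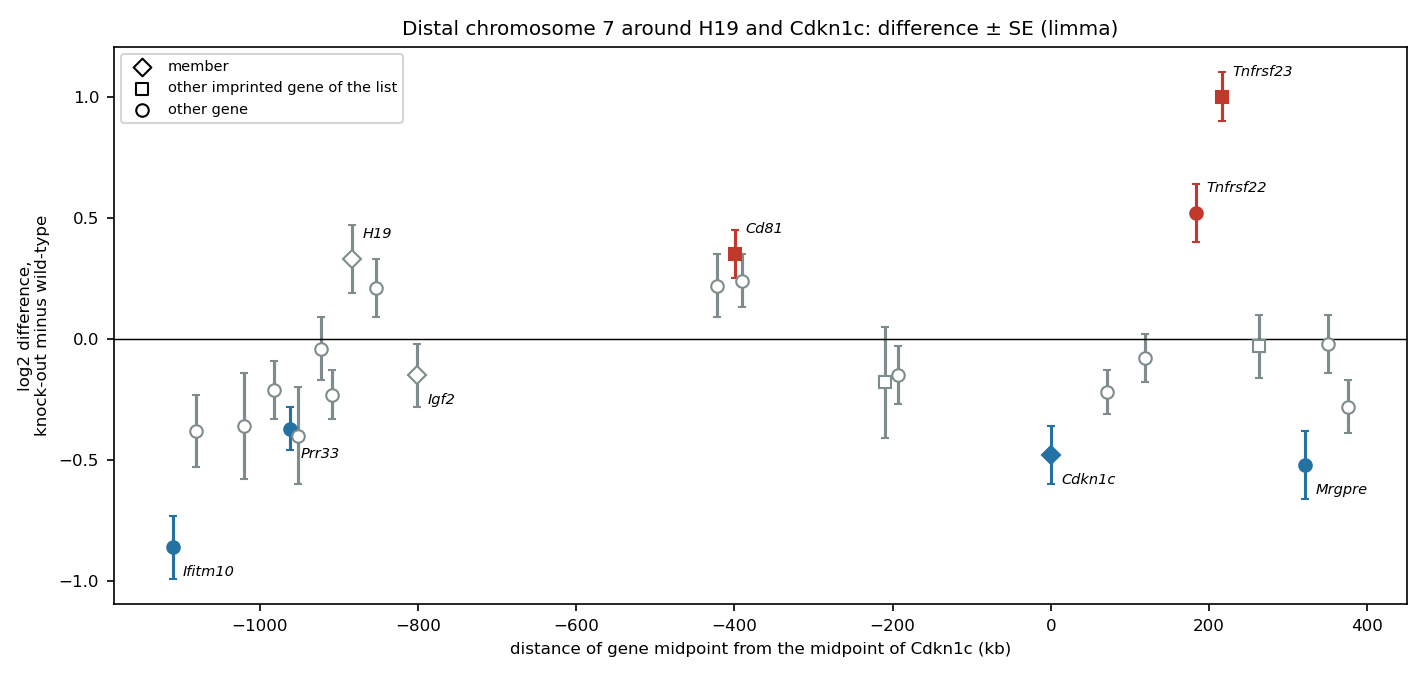
Difference of mean rlog values (log2 scale, knock-out minus wild-type) with SE from limma against the distance of each gene's midpoint from that of Cdkn1c in kb. Diamonds are H19, Igf2 and Cdkn1c, squares other imprinted genes and circles further genes, and filled red and blue symbols are called higher and lower: Cdkn1c at -0.48 is flanked by Tnfrsf22 at 0.52 and Tnfrsf23 at 1.00 on the right, while Ifitm10 at -0.86 lies at the left end.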

How the data were processed

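RNA of gastrocnemius muscle, given in parts of the paper as gastrocnemius and plantaris, was sequenced by the authors, with 5 mice of each genotype. The submitters' processing notes name cutadapt 2.5, STAR 2.5.4a, Subread 1.6.1 with featureCounts, DESeq2 and the build GRCm38; the strand setting is not given in the sources used here. The values deposited by the authors are rlog values on a log2 scale. Counts were not used here, so depth and counting error are unknown. All 10 sample columns were used.

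Symbols and positions came from GENCODE M21 and were found for 54165 rows, and sequences came from RefSeq tables (GRCm38.p6). Genes whose mean reached log2(10) entered a test across all genes with limma 3.58.1 in R 4.3.3 (trended prior variance, two-sided, Benjamini-Hochberg over 14289 genes). Genes under this limit were taken from a fit without it. Pairs of genes were compared with exact permutation tests (scipy 1.17.1). The limma script was tested on simulated data. p-values measure the spread between these samples, as the labels do not describe how the mice were bred or processed.

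The 10 genes, the gene lists and the tests were chosen with earlier results of these data known. Named were the 10 genes, Des, up to 8 called other imprinted genes, per list and per neighbourhood at most 3 genes of smallest adjusted p, the 3 genes of most like profile for each called gene, and rows that overlap the 10 genes. Further genes of the lists and of the same clusters, such as Zim1, Igf2r, Nctc1 and Tnnt3, were named after their values had been seen.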

Additional observations from a re-analysis of the deposited data

Results flagged for a closer look

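Each of the 10 genes was looked at in both genotypes, 20 groups of 5 mice, for a mouse whose gap to the nearest other exceeded 0.71 of the range of its group. This was so in 1 group, and chance gives about 1. Peg3 in wild-type mouse 3, at 8.26, lay below the other 4 wild-type mice, which had 8.97 to 9.20, with a gap of 0.749 of the range. Without this mouse Peg3 remained higher in knock-out muscle, by 1.15 with an adjusted p of 5.1e-05 (limma).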

How the results depend on the processing

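Of the 10 genes, 2 were called in the reported fit, 3 (Peg3, Cdkn1c and H19) with quantile normalization, sample weights or the Y-linked covariate, 1 at an adjusted p under 0.01, and 1 to 3 when a mouse was left out. Of the other imprinted genes 6 were called, against 10 with sample weights, 3 at an adjusted p under 0.01 and 4 to 7 when a mouse was left out. Of the neighbouring genes 5 were called, against 3 with a limit of log2(50), 2 at an adjusted p under 0.01 and 3 to 5 when a mouse was left out. Of all genes 1956 were called, against 4220 with sample weights, 994 at an adjusted p under 0.01 and 1399 to 2494 when a mouse was left out. Median centring gave 942 higher and 979 lower genes in place of 1100 and 856. The direction turned for Meg3 (0.08 without wild-type mouse 4), Rian (-0.07 with sample weights, -0.16 with the Y-linked covariate, -0.11 without wild-type mouse 3), Dlk1 (0.03) and Grb10 (0.14), both without wild-type mouse 5. When each mouse was left out in turn, Meg3 ranged from -0.40 to 0.08, Rian from -0.11 to 0.34, Dlk1 from -0.12 to 0.03, Grb10 from -0.23 to 0.14, Mirg from -0.28 to -0.05, Plagl1 from 0.20 to 0.45 and Igf2 from -0.24 to -0.07. Mirg minus Meg3 ranged from -0.20 to 0.12 when a mouse was left out, with 0.03 without knock-out mouse 2, 0.04 without wild-type mouse 1 and 0.12 without wild-type mouse 3, and Dlk1 minus Meg3 from -0.17 to 0.33, with -0.01 without knock-out mouse 3, -0.03 without wild-type mouse 2 and -0.17 without wild-type mouse 4. Igf2 minus H19 ranged from -0.55 to -0.38, Rian minus Meg3 from 0.11 to 0.44 and Mirg minus Rian from -0.46 to -0.18. The adjusted p of Igf2 minus H19 (0.0794) follows from the smallest exact p that 4 mice against 5 allow. The cause of the other changes was not tested.

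Knock-out and wild-type mice share replicate numbers in the labels. The deviations of mice of the same number from their group means correlated between -0.219 and 0.0673. Such values cannot show whether these mice also shared a litter or a preparation, which the labels do not give. With the replicate number as a block, 1579 genes were called in all, 2 of the 10 genes, 5 other imprinted genes and 4 neighbouring genes. Quantile normalization was not run for pairs with Igf2 or Dlk1, which lie under the expression limit. Shrinkage and unknown depth limit what can be seen for Igf2, Dlk1, Mirg and Plagl1.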
